A study of Mus musculus with 2 samples.

Results

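The genes of 10 enzymes that hydroxylate and crosslink collagen were measured in the livers of HFD-fed mice that received a control vector or a vector for the long noncoding RNA Wee1-AS. They are 5 lysyl oxidases (Lox, Loxl1, Loxl2, Loxl3 and Loxl4), 3 lysyl hydroxylases (Plod1, Plod2 and Plod3) and the catalytic subunits of 2 prolyl 4-hydroxylases (P4ha1 and P4ha2). Members were taken by gene symbol, and the estimated counts of all transcripts with the same symbol were summed. They are 10 of the 45777 genes in the table, and all 10 are among the 15857 genes that reached at least 10 counts in at least 1 library.

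C57BL/6 N mice (C57BL/6 in the sample titles) were placed on a HFD at 7 weeks of age for 18 weeks. The adeno-associated virus was injected behind the eye at week 13. AAV-GFP mice received a vector for green fluorescent protein and AAV-Wee1-AS mice the vector for Wee1-AS, so both groups carried the diet and a virus. The vector was of serotype AAV9 with a CMV promoter, which is not restricted to hepatocytes. There was 1 library of poly-A RNA per group, although the design text speaks of more liver samples, and the sources used here do not say whether mice were pooled or of which sex they were. No difference below therefore has a replicate check, no p-value is given, and Wee1-AS itself was not analysed here.

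Collagen chains are modified while they are still in the endoplasmic reticulum. Prolyl 4-hydroxylases convert proline to 4-hydroxyproline, which keeps the triple helix stable at body temperature, and lysyl hydroxylases convert lysine to hydroxylysine. Both kinds of enzyme need iron, 2-oxoglutarate and ascorbate. After secretion, the copper-dependent lysyl oxidases turn lysine and hydroxylysine side chains into aldehydes that join neighbouring molecules into insoluble fibres, also in elastin. In the liver, hepatic stellate cells and portal fibroblasts are the known main source of fibrillar collagen, and crosslinked collagen is known to resist breakdown in fibrosis.

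The AAV-GFP library held 55466182 estimated counts and the AAV-Wee1-AS library 48079335. Differences are given as log2 ratios of scaled counts, AAV-Wee1-AS over AAV-GFP, with an exact 95% interval of counting error only. It does not cover differences between mice or library preparations. It also takes reads as independent, which PCR reads are not, and is thus too narrow even for counting error. Levels are given in TPM, which takes transcript length into account, and can be set side by side between genes. The log2 ratio followed the GC content of the transcript over the whole table. Its median was 1.44 in the bin of 1500 genes with the lowest GC content (31.0% to 41.6%) and -0.68 in the bin with the highest (57.7% to 72.8%). Each member's ratio is therefore also given after the trends with GC content and length were removed. The part of base composition in any single result was not tested.

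Of the 10 enzyme genes, 8 were lower in the AAV-Wee1-AS library. The lysyl oxidases Loxl1 and Loxl2 lay below 0.5-fold, at 31.9% and 49.8% of the AAV-GFP value, and no member lay above 2-fold. Over all genes that passed the filter, 31.0% lay past 2-fold in either direction, 8.43% below 0.5-fold and 22.5% above 2-fold. The interval lay wholly below 0 for 6 members, against 37.4% of all genes, and wholly above 0 for 1 member, P4ha1, against 39.6%. It held 0 for Lox, Loxl4 and Plod2. The median log2 ratio of the members was -0.52, while that of all genes was -0.002. After removal of the GC and length trends, the median of the members was -0.48, and 7 of 10 were lower. Of the 10, 3 (Lox, Loxl2 and Plod2) then lay below 0.5-fold, but Lox and Plod2 had at most 31 counts in any library. No interval was computed for values with the trends removed. Over the 14995 genes with a GC content, 7583 were then lower, 1274 lay below 0.5-fold and 1111 above 2-fold, with a median of -0.008. The study used genes of collagen fibril organization from this same comparison, so the direction of these enzymes is not independent evidence.

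In TPM, the order of the 10 genes was identical in both libraries. Plod1 stood highest, at 56.98 TPM in AAV-GFP and 41.2 TPM in AAV-Wee1-AS, followed by Plod3 at 18.9 and 12.1 TPM. P4ha2 came next at 6.06 and 5.05 TPM, and P4ha1 at 3.48 and 4.61 TPM. The lysyl oxidases followed. Loxl2 had 3.03 and 1.46 TPM, Loxl1 2.43 and 0.738 TPM, Loxl3 1.20 and 0.626 TPM, and Loxl4 0.400 and 0.392 TPM. Plod2, at 0.162 and 0.112 TPM, and Lox, at 0.112 and 0.0521 TPM, were the lowest, with at most 31 counts in any library. With 1 library per group there is no spread over mice by which neighbours in this order could be told apart. Together the 10 genes made up 0.00928% of all TPM in AAV-GFP and 0.00664% in AAV-Wee1-AS.

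**Figure D1:**
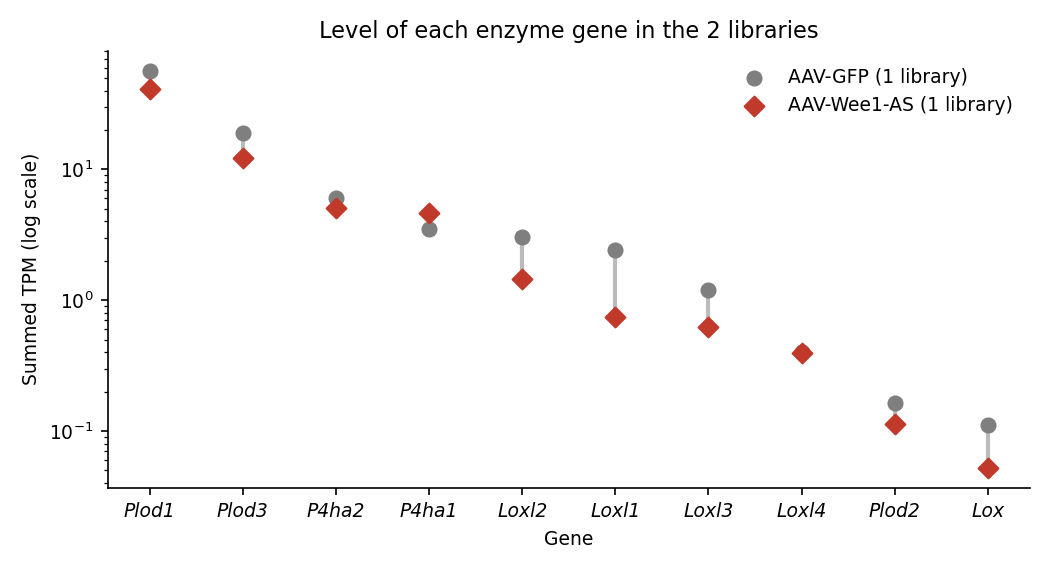
Summed TPM (log scale) of each enzyme gene for AAV-GFP (grey circles) and AAV-Wee1-AS (red diamonds), 1 library per group, with a grey line joining both values of a gene. The order from Plod1 to Lox is the same in both libraries, and only P4ha1 is higher in AAV-Wee1-AS, at 4.61 against 3.48 TPM.

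By median log2 ratio of scaled counts, the lysyl oxidases were the lowest class. Their summed level was 7.17 TPM in AAV-GFP and 3.26 TPM in AAV-Wee1-AS, a ratio of 0.455, and their median log2 ratio was -0.87 (-0.97 with the GC and length trends removed). Of the 5 genes, 4 were lower in AAV-Wee1-AS and 2 lay below 0.5-fold. The class order turned with a pseudocount of 1. The medians of the lysyl oxidases and the lysyl hydroxylases were then -0.30 and -0.47 with FPKM, and -0.44 and -0.46 with TPM.

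Loxl1 directs elastin crosslinking and is needed for elastic fibre renewal. It lies at chr9:58287723-58313212 (GRCm38) and has 1 transcript in the table. It had 267 counts in AAV-GFP and 69 in AAV-Wee1-AS, a log2 ratio of -1.65 (interval -2.08 to -1.29). Only 2.88% of all genes had a lower ratio. Loxl1 also has the highest GC content of the members, 61.0%, where genes within 1% of GC content had a median of -0.69, and its ratio was -0.97 after removal of the trends.

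Loxl2 crosslinks fibrillar and basement membrane collagen and has been a drug target in liver fibrosis. It lies at chr14:69608692-69695834. It had 531 counts in AAV-GFP and 217 in AAV-Wee1-AS, a log2 ratio of -1.01 (interval -1.25 to -0.78). This value sits at the 2-fold limit and hardly moved with the GC and length trends removed, at -1.09. All of its counts were assigned to predicted transcripts. Variant X4 held 479 of 531 counts in AAV-GFP, 90.2% (exact interval 87.4% to 92.6%), and all 217 counts in AAV-Wee1-AS. Variant X1 held the other 52 in AAV-GFP and 0 in AAV-Wee1-AS, and the curated transcript was at 0 in both libraries.

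Loxl3, which acts in elastic and cartilage matrix, lies at chr6:83034205-83052566. It had 161 and 72 counts, a log2 ratio of -0.87 (interval -1.30 to -0.47), or 54.8% of the AAV-GFP value. Its log2 ratio was -0.61 with the GC and length trends removed. It overlaps Htra2 by 1301 bases, and Htra2, a mitochondrial protease, had 832 and 424 counts with a log2 ratio of -0.69 (interval -0.87 to -0.52). Dok1, whose end lies 710 bases from Loxl3, had 161 and 66 counts and a log2 ratio of -0.99. Loxl3 and both neighbours were thus lower in the same library. Library preparation used dUTP, but the strand setting of the authors' counting is not given in the sources used here. Reads of overlapping genes may thus have been shared.

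Loxl4, at chr19:42592279-42612806, had nearly the same scaled level in both libraries. It had 72 and 60 counts, a log2 ratio of 0.01 (interval -0.50 to 0.53), or a fold of 1.01 (0.705 to 1.44). With the GC and length trends removed, the ratio was 0.52. Its neighbour R3hcc1l ends 5 bases away and had 138 and 511 counts, a log2 ratio of 2.15 (interval 1.89 to 2.45). All Loxl4 counts were assigned to variant 1, which has 5437 bases, while the trends were removed with the values of a transcript of 3738 bases.

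Lox, the founding enzyme of the family, on chromosome 18, had few counts. There were 19 counts in AAV-GFP and 8 in AAV-Wee1-AS, all in variant 1, and a log2 ratio of -0.83 whose interval held 0 (-2.37 to 0.29). Lox has a low GC content of 43.9%, and genes within 1% of it had a median log2 ratio of 1.00, so that the value with the trends removed was -1.89.

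The lysyl oxidases did not share 1 ratio. Among 16 pairs of genes compared with exact conditional intervals of counting error, Loxl1 lay 0.66 log2 units below Loxl2 (difference -0.66, interval -1.13 to -0.20) and below Loxl3 (difference -0.79, interval -1.37 to -0.21). Loxl1, Loxl2 and Loxl3 all lay below Loxl4. The difference from Loxl4 was -1.69 for Loxl1 (interval -2.35 to -1.03), -1.03 for Loxl2 (interval -1.60 to -0.45) and -0.90 for Loxl3 (interval -1.57 to -0.23). Loxl2 and Loxl3 differed by -0.13, with an interval of -0.61 to 0.35. These intervals compare the libraries and not the conditions. The order of Loxl1 and Loxl2 turned with the GC and length trends removed, at -0.97 and -1.09, while both stayed below Loxl4 at 0.52.

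**Figure D2:**
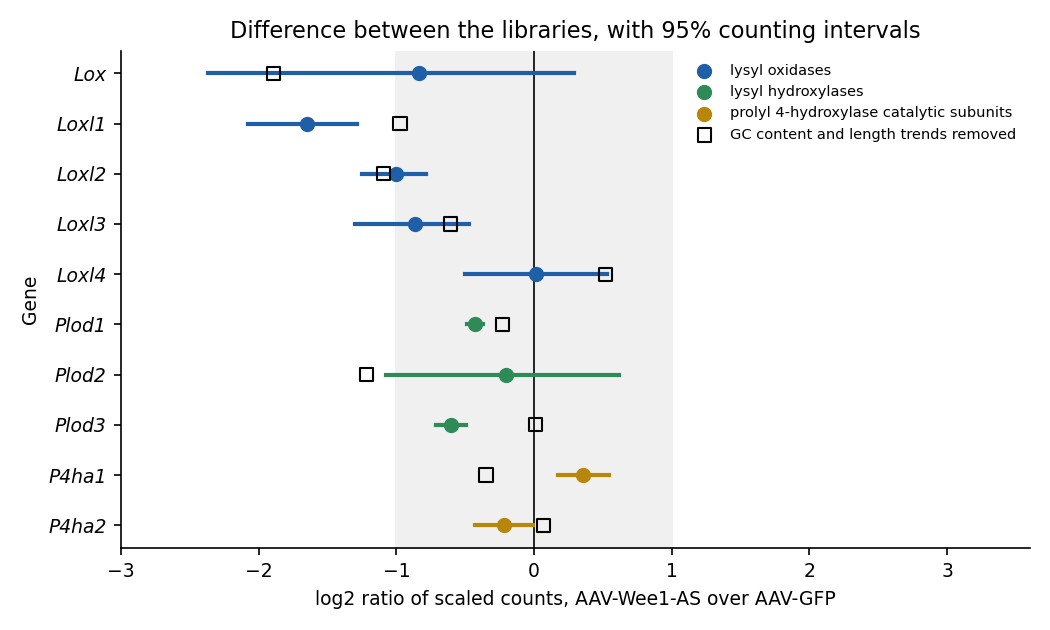
Log2 ratio of scaled counts, AAV-Wee1-AS over AAV-GFP, for each enzyme gene (filled circles coloured by class) with its 95% counting interval (bars), and the ratio with GC content and length trends removed (open squares). The grey band spans 2-fold in each direction. Loxl1 at -1.65 and Loxl2 at -1.01 lie to the left of it, Loxl4 lies at 0.01 and P4ha1 at 0.35.

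By median, the lysyl hydroxylases were lower in AAV-Wee1-AS by less than the lysyl oxidases, except with FPKM or TPM at a pseudocount of 1. Their summed level was 76.1 TPM in AAV-GFP and 53.5 TPM in AAV-Wee1-AS, a ratio of 0.703, the median log2 ratio was -0.43 (-0.23 with the trends removed), and 0 of 3 lay past 2-fold. After removal of the trends 1 of 3, Plod2, lay below 0.5-fold.

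Plod1, the lysyl hydroxylase whose loss causes kyphoscoliotic Ehlers-Danlos syndrome, lies at chr4:147909753-147936776 and carried most of the counts of the whole group. It had 6103 counts in AAV-GFP and 3741 in AAV-Wee1-AS, a log2 ratio of -0.43 (interval -0.49 to -0.37), or 74.3% of the AAV-GFP value. Its GC content is 52.7%, where the median of other genes was -0.35, and 31.4% of all genes had a lower ratio. With the trends removed, its log2 ratio was -0.23.

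Plod3, which also glycosylates hydroxylysine, lies at chr5:136987019-136996646. It had 2044 and 1110 counts, a log2 ratio of -0.60 (interval -0.71 to -0.50), or 65.9% of the AAV-GFP value. Genes within 1% of its GC content of 57.8% had a median of -0.64, and with the trends removed the log2 ratio of Plod3 was 0.00842. Plod3 overlaps Znhit1, a subunit of a chromatin remodelling complex, by 941 bases. Znhit1 had 2094 and 1089 counts and a log2 ratio of -0.66 (interval -0.77 to -0.56), near that of Plod3. The ratio of Plod1 lay above that of Plod3 by 0.17 log2 units (interval 0.05 to 0.30) before the trends were removed. This order turned with the trends removed, at -0.23 for Plod1 and 0.00842 for Plod3.

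Plod2, which hydroxylates lysines of the collagen telopeptides and is known as an enzyme of fibrosis, lies at chr9:92539636-92608428 and was barely detected. It had 31 and 22 counts, a log2 ratio of -0.20 (interval -1.08 to 0.62). With a GC content of 43.0%, where the median of other genes was 1.13, its value with the trends removed was -1.22. That GC content and length belong to a transcript of 3663 bases, while most counts were assigned to a predicted transcript of 6709 bases. Splice variant 1 of Plod2 includes an alternative exon that variant 2 lacks, and the longer form is the one linked to telopeptide hydroxylation. The exon is shown because it sets variant 1 apart from variant 2, and reads on the exon alone were not counted. It is exon 14, chr9:92601985-92602047 (GRCm38, plus strand, GENCODE M21), 63 bases of coding sequence:

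Plod2 variant 1 exon 14: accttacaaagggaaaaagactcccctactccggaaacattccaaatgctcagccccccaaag

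Variant 1 was assigned 7 counts in AAV-GFP and 0 in AAV-Wee1-AS, variant 2 had 0 in both, and the predicted variant X1 held the remaining 24 and 22 counts. The interval of variant 1 lay below a log2 ratio of -0.25, and that of X1, at 0.14, held 0 (-0.75 to 1.05). The forms were not tested against each other.

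The prolyl 4-hydroxylase catalytic subunits differed from each other in direction. P4ha1 was higher and P4ha2 lower in AAV-Wee1-AS, and their summed level was 9.54 TPM in AAV-GFP and 9.66 TPM in AAV-Wee1-AS, a ratio of 1.01. Each of these genes has a pair of mutually exclusive coding exons, and the libraries differed in the variant to which the counts were assigned. The exons are shown for that reason, on the plus strand of GRCm38 with GENCODE M21 exon numbers. Capitals mark bases that both exons of a pair share when aligned. For P4ha1, both are exon 9 of their variant and 71 bases long, at chr10:59354340-59354410 in variant 3 and chr10:59355350-59355420 in variant 2, and 42 positions are identical. For P4ha2, both are exon 13, at chr11:54126238-54126297 in variant 1 (60 bases) and chr11:54126346-54126411 in variant 2 (66 bases), with 37 aligned identical bases.

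P4ha1 variant 3 exon 9: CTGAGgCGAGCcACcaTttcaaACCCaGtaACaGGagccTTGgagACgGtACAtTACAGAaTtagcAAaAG

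P4ha1 variant 2 exon 9: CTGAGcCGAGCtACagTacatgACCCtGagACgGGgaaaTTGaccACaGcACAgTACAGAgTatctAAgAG

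P4ha2 variant 1 exon 13: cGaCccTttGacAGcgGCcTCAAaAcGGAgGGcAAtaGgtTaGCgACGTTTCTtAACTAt

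P4ha2 variant 2 exon 13: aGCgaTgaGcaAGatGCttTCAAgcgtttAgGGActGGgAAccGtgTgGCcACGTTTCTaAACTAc

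P4ha1, at chr10:59323197-59373304, encodes the more widely expressed catalytic subunit. It had 464 counts in AAV-GFP and 490 in AAV-Wee1-AS, a log2 ratio of 0.35 (interval 0.17 to 0.54). That direction was not kept with the GC and length trends removed, where the value was -0.35, nor with curated transcripts only, where it was -0.07. Its GC content is 45.7%, and genes within 1% of it had a median log2 ratio of 0.67.

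The P4ha1 counts were spread differently over its transcripts. Variant 2 had 200 counts in AAV-GFP and 239 in AAV-Wee1-AS, a log2 ratio of 0.53 (interval 0.26 to 0.81). Variant 3 had 264 and 116, a log2 ratio of -0.90 (interval -1.24 to -0.59). Of the counts on these coding variants, variant 3 held 56.9% in AAV-GFP (exact Clopper-Pearson interval 52.3% to 61.5%) and 32.7% in AAV-Wee1-AS (27.8% to 37.8%). The leading coding variant was thus a different one in each library. Reads on either exon 9 alone were not counted. Noncoding transcripts of the gene (X1, X3, X4 and X6) held 0 of 464 counts in AAV-GFP, which allows a share of up to 0.792%, and 135 of 490 in AAV-Wee1-AS, 27.6% (interval 23.6% to 31.7%). On the coding transcripts alone, P4ha1 had 464 and 355 counts, a log2 ratio of -0.11 whose interval held 0 (-0.31 to 0.09).

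P4ha2, at chr11:54100924-54131668, encodes the other catalytic subunit, which is prominent in chondrocytes, osteoblasts and endothelial cells. It had 456 counts in AAV-GFP and 323 in AAV-Wee1-AS, a log2 ratio of -0.22 (interval -0.43 to -0.01), and 0.07 with the GC and length trends removed. Variant 1 had 359 and 187 counts, a log2 ratio of -0.66 (interval -0.93 to -0.40). Variant 2 had 97 and 136 counts, a log2 ratio of 0.75 (interval 0.38 to 1.16). The share of variant 1 was 78.7% in AAV-GFP (interval 74.7% to 82.4%) and 57.9% in AAV-Wee1-AS (52.3% to 63.3%). In both genes the variant that led in AAV-GFP thus had a smaller share in AAV-Wee1-AS. Over the whole gene, the log2 ratio of P4ha1 lay 0.58 above that of P4ha2 (interval 0.29 to 0.86). This order turned with the GC and length trends removed, at -0.35 for P4ha1 and 0.07 for P4ha2, and on coding transcripts alone P4ha1 was at -0.11.

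Shifts of this kind were common in the table. Among 7159 genes with at least 100 counts in each library and more than 1 transcript with counts, 22.0% had a leading AAV-GFP transcript that lost at least 20 percentage points of its gene, while 4.61% had one that gained as much. P4ha1 lost 33.2 points and P4ha2 lost 20.8 points, against a median loss of 2.68. Noncoding transcripts gained at least 20 points in 7.44% of 2044 genes that have them, and P4ha1 gained 27.6 points. The leading transcript was picked by its AAV-GFP counts, which by itself favours losses over gains, also for P4ha1 and P4ha2. The excess of losses is therefore not read as a direction. These limits were chosen after the members' shares had been seen. Counts are estimates divided between overlapping transcripts, and the error of that division is unknown, so the intervals of the shares are too narrow.

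**Figure D3:**
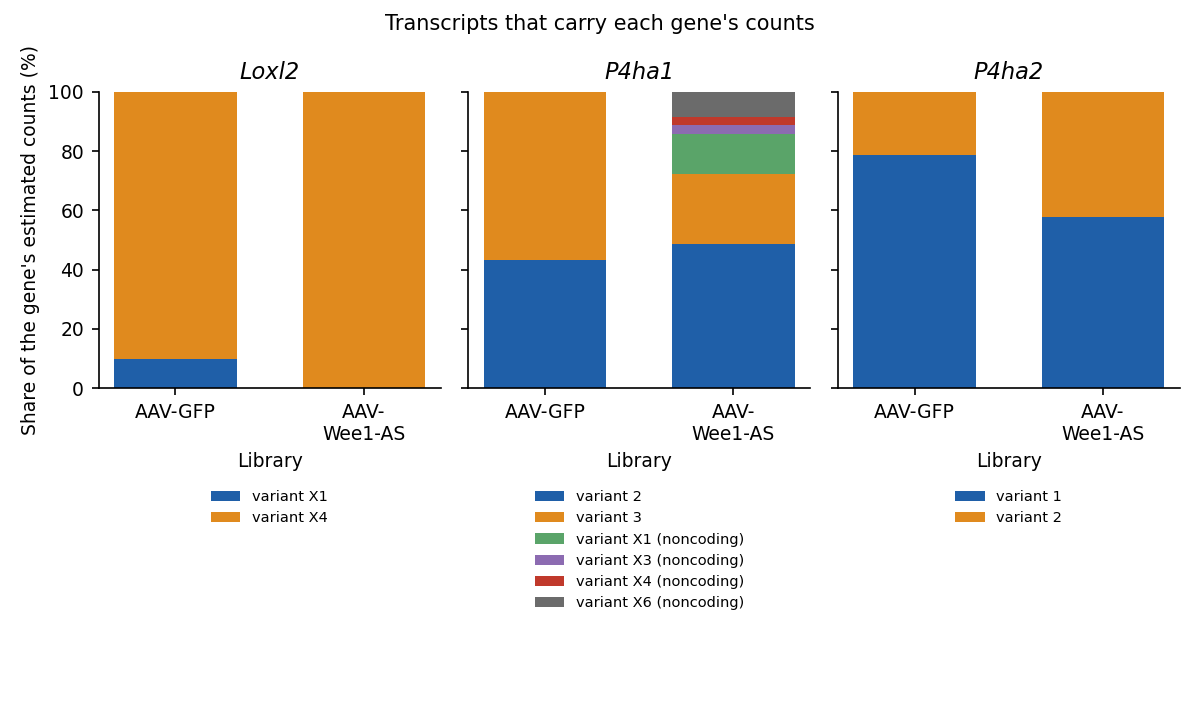
Share of each gene's estimated counts (%) by transcript variant in the AAV-GFP and the AAV-Wee1-AS library, for Loxl2, P4ha1 and P4ha2, 1 library per bar. P4ha1 variant 3 goes from 56.9% to 23.7% of the gene while noncoding variants go from 0 to 27.6%, and P4ha2 variant 1 goes from 78.7% to 57.9%.

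Several prolyl and lysyl hydroxylase genes are known targets of hypoxia-inducible factors, whose binding sites share a short core. The more common core, ACGTG, was searched on both strands in the RefSeq promoter table of GRCm38.p6, which spans 300 bases around each gene start and held 5 of the 10 members. It was found once in P4ha1, once in Plod3, 2 times in P4ha2, and 0 times in Loxl4 and Plod1, while 19.6% of all 32851 promoters of this length hold it. The other core, GCGTG, was found 2 times in P4ha1, 3 in Plod3, 2 in P4ha2, 2 in Plod1 and once in Loxl4, against 32.4% of all promoters with at least 1. The 3 promoters with the first core are shown on the plus strand, 5′ to 3′, with that core or its reverse complement in capitals. P4ha1 is chr10:59323046-59323345, P4ha2 chr11:54100674-54100973 and Plod3 chr5:136986769-136987068.

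P4ha1 promoter: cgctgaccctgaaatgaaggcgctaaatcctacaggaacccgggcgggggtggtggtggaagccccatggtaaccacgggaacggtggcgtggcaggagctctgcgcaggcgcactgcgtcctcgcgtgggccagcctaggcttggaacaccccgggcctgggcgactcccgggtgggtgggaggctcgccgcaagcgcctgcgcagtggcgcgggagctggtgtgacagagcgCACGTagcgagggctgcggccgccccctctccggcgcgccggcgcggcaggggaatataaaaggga

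P4ha2 promoter: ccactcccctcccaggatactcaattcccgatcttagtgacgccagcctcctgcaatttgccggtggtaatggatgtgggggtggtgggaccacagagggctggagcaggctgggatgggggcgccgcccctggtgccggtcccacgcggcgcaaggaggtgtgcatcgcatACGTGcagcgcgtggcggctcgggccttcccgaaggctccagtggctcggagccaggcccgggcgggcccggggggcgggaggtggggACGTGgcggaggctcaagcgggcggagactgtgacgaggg

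Plod3 promoter: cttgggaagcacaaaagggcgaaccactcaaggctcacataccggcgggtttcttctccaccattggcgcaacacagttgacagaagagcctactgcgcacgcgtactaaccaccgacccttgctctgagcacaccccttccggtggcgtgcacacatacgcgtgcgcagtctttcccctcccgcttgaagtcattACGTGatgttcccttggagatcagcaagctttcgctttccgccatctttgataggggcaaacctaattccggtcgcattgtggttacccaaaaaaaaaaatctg

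A match is a description of the letters and not a binding site. Of 18 other genes known to be induced in hypoxia, 2 lay above 2-fold and 2 below 0.5-fold, and their median log2 ratio was -0.42 (-0.17 with the trends removed). Pdk1, which restrains mitochondrial pyruvate use, had a log2 ratio of 1.57 and Ndrg1, a stress-induced gene, one of -1.17. The glycolytic genes Eno1 at -0.95, Ldha at -0.38 and Pgk1 at 0.26 lay on both sides of 0. With the trends removed, 0 of the 18 lay above 2-fold and 2 below 0.5-fold, with Pdk1 at 0.79, Eno1 at -0.24 and Ndrg1 at -1.22. The members with the first core also lay on both sides of 0, with P4ha1 at 0.35, P4ha2 at -0.22 and Plod3 at -0.60, and did so in reverse with the trends removed, at -0.35, 0.07 and 0.00842. The 4 oxygen-sensing hydroxylase genes that passed the filter had a median of -0.40 (-0.07 with the trends removed), with 0 past 2-fold.

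The collagens, the substrates of these enzymes, had a lower median than any of the enzyme classes. Fibril-forming collagens had a summed level of 119 TPM in AAV-GFP and 34.8 TPM in AAV-Wee1-AS. Of the 8 that passed the filter, 6 lay below 0.5-fold, with and without the trends, and the median was -1.69 (-1.59 with the trends removed). Col1a1, the main chain of type I collagen, had 3620 and 603 counts, a log2 ratio of -2.30 (interval -2.43 to -2.18). Each member with at least 72 counts in a library had a higher ratio than Col1a1. The difference was 0.63 for Loxl1 (interval 0.21 to 1.04), 1.29 for Loxl2 (1.03 to 1.56) and 1.42 for Loxl3 (0.98 to 1.85). It was 1.70 for Plod3 (1.54 to 1.87), 1.88 for Plod1 (1.74 to 2.02), 2.09 for P4ha2 (1.84 to 2.33), 2.32 for Loxl4 (1.79 to 2.85) and 2.66 for P4ha1 (2.44 to 2.89). Among these members Loxl1 came nearest to Col1a1, but with the trends removed Col1a1 was at -2.04, Loxl2 at -1.09 and Loxl1 at -0.97, so Loxl1 was no longer the nearest. Among basement membrane and beaded collagens 6 of 10 lay below 0.5-fold, with a median of -1.14 (-1.08 with the trends removed). Of 11 genes in a list of elastic fibre proteins, which also holds Fn1 and Postn, 3 lay below 0.5-fold and 1 above 2-fold. Their median was -0.58. Fn1 at 0.22 and Postn at 1.32 were the only 2 above 0, and they are not elastic fibre proteins. With the trends removed, 2 of the 11 lay below 0.5-fold and 0 above 2-fold, with a median of -0.48. Elastin itself (Eln) had 216 and 76 counts, a log2 ratio of -1.21 (-0.66 with the trends removed). Mfap2, a microfibril protein, had 24 and 0 counts. It was 6.60-fold lower with the empty library set to 3 counts, and its counting interval lay below a log2 ratio of -2.31.

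Other genes that mature collagen lay on both sides of 0. Of the 32 that passed the filter in 4 lists, 7 lay below 0.5-fold and 5 above 2-fold, and their median was 0.002. With the trends removed, 24 of 32 were lower, 2 lay below 0.5-fold and 1 above 2-fold, and the median was -0.17. In prolyl hydroxylation, P4hb, the partner of P4ha1 and P4ha2, had 157981 and 100095 counts, a log2 ratio of -0.38, and the prolyl 3-hydroxylase P3h1 had one of -0.57. These were 0.08 and 0.01 with the trends removed. The median of that list was -0.57 (-0.12 with the trends removed), with 1 of 7 below 0.5-fold (0 with the trends removed). Among 10 chaperones and glycosyltransferases 3 lay below 0.5-fold and 1 above 2-fold, and their median turned from 0.26 to -0.52, with 9 of 10 lower, and 0 past 2-fold, when the trends were removed. Fkbp10, a prolyl isomerase known to assist Plod2, had 229 and 69 counts and a log2 ratio of -1.43 (-0.75 with the trends removed). The general chaperone Canx had 6991 and 11801 counts and a log2 ratio of 1.03, which was -0.16 with the trends removed. Of 6 procollagen proteinases and enhancers 3 lay below 0.5-fold, with a median of -0.73 (2 and -0.63 with the trends removed), among them Pcolce at -1.12 (-0.57), while Bmp1, the proteinase that also activates Lox, was at -0.11 (0.16). Procollagen export genes had a median of 0.88, with 4 of 9 above 2-fold. The median was -0.03 and 1 of 9 lay above 2-fold with the trends removed, against 1111 of the 14995 genes with a GC content. Mia3, which loads procollagen into vesicles, had 2659 and 7327 counts, a log2 ratio of 1.74 (1.21 with the trends removed).

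A list drawn up for other crosslinking enzymes had a median of -0.75 over 7 genes (-0.89 with the trends removed), with 3 below 0.5-fold. These were Tgm2, Aoc3 at -1.35 and Sulf1 at -1.44. Sulf1 is not a crosslinking enzyme and Aoc3 is not an established one, so the counts do not describe crosslinking enzymes alone. Tgm2, the tissue transglutaminase, had 22038 and 7633 counts, a log2 ratio of -1.25. Removal of the trends left Tgm2 at -0.71. Of the 7, 2 then lay below 0.5-fold, Aoc3 at -1.16 and Sulf1 at -2.22, and 1 above 2-fold, Tgm1 at 1.04. Of 10 genes for the supply of copper, iron and ascorbate, 2 lay above 2-fold and 0 below 0.5-fold, with a median of 0.25 (0.14 with the trends removed). Atp7a, which loads copper onto lysyl oxidases, had 74 and 267 counts, and the transferrin receptor Tfrc had 193 and 866. Atox1, the copper chaperone for Atp7a, had a log2 ratio of -0.88. With the trends removed, Atp7a was at 1.10, Tfrc at 0.95 and Atox1 at 0.02, which leaves 1 gene above 2-fold.

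**Figure D4:**
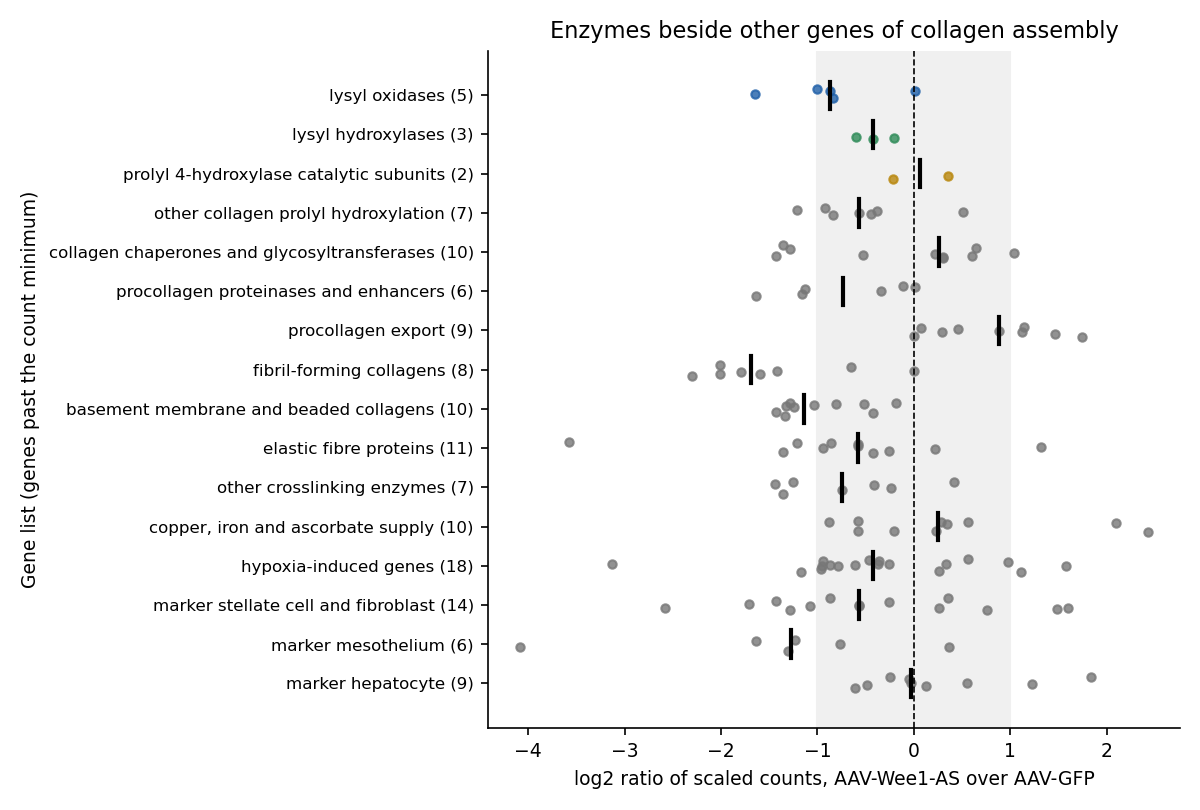
Log2 ratio of scaled counts, AAV-Wee1-AS over AAV-GFP, of each gene past the count minimum in the enzyme classes (coloured points) and in other lists (grey points), with list medians as black bars, the median of all genes as a dashed line and a grey band for 2-fold. The lysyl oxidases have a median of -0.87 and the fibril-forming collagens of -1.69, while procollagen export genes lie at 0.88. Mfap2, Car9 and Wt1, the leftmost points of their lists, had 0 counts in AAV-Wee1-AS.

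Markers of cells known to make these enzymes were also measured. In bulk tissue, fewer cells of a type and less RNA per cell cannot be told apart. Of 14 stellate cell and fibroblast markers, 5 lay below 0.5-fold and 2 above 2-fold, with a median of -0.57 (-0.53 with the trends removed), a summed level of 211 TPM in AAV-GFP and 179 TPM in AAV-Wee1-AS, and none at 0. The interval lay wholly below 0 for 9 of them and wholly above 0 for 5, and the log2 ratio of their summed counts was 0.001. The contractile markers Acta2, with 331 and 82 counts, and Tagln, with 780 and 106, were lower, as was the receptor Pdgfrb with 1129 and 441. The quiescence marker Lrat, with 267 and 617 counts, and the pericyte gene Rgs5, with a log2 ratio of 1.60, were higher, as was the receptor Pdgfra with 172 and 242. With the trends removed, these stood at only 0.11, 0.33 and 0.03, while Acta2 at -1.65, Tagln at -2.16 and Pdgfrb at -0.90 stayed low, and 4 of 14 markers lay below 0.5-fold and 0 above 2-fold. The abundant markers Reln at 0.26, Dcn at 0.35 and Colec11 at -0.87 lay on both sides of 0, but all 3 lay below it with the trends removed, at -0.39, -1.23 and -0.43. Markers of the mesothelium, the cells that cover the liver surface, had a median of -1.27 with 4 of 6 below 0.5-fold (-1.01 and 3 with the trends removed) and a summed level of 4.23 and 1.73 TPM. Wt1 had 35 and 0 counts, 9.62-fold lower against 3 counts, and its counting interval lay below a log2 ratio of -2.89. The part of these cells in the enzymes' ratios was not tested. Hepatocyte markers, which identify the tissue as liver, had a summed level of 77933 and 87082 TPM and a median of -0.03 (0.32 with the trends removed). Medians were -0.25 for endothelial (-0.17 with the trends removed), -0.11 for cholangiocyte (0.30), -0.44 for macrophage (-0.18) and -0.41 for lymphocyte markers (-0.40). Of 12 macrophage markers, 3 lay below 0.5-fold and 3 above 2-fold, or 3 and 1 with the trends removed.

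The members were also set beside genes of like GC content. Plod3 had a ratio of -0.60 beside a median of -0.64, P4ha2 -0.22 beside -0.28 and Plod1 -0.43 beside -0.35. Loxl1, Loxl2 and Loxl3 lay below the genes of like GC content, at -1.65 beside -0.69, -1.01 beside -0.22 and -0.87 beside -0.41. Loxl4 lay above them, at 0.01 beside -0.61. P4ha1 lay below genes of like GC content, at 0.35 beside 0.67, although its own ratio was above 0.

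**Figure D5:**
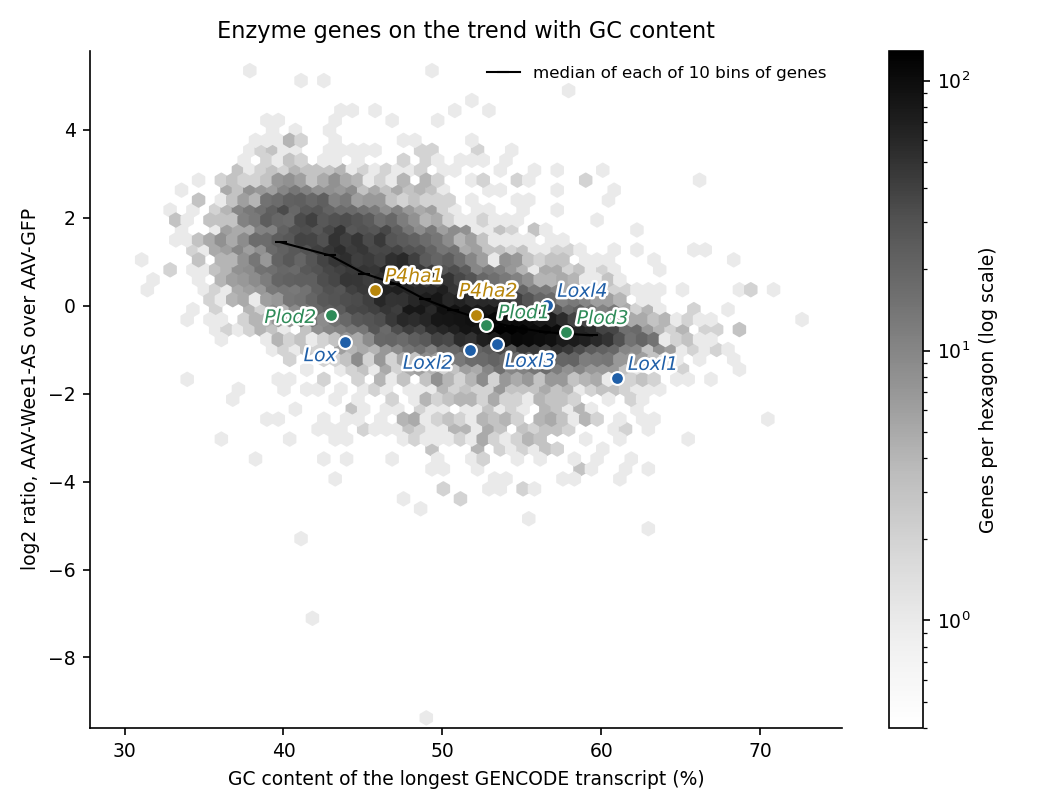
Log2 ratio, AAV-Wee1-AS over AAV-GFP, against the GC content (%) of the longest GENCODE transcript for the genes past the count minimum (grey hexagons, number of genes on a log scale), with the enzyme genes as points coloured by class and the median of each of 10 bins of genes as a black line. The line goes from 1.44 at low to -0.68 at high GC content, Plod1, Plod3 and P4ha2 lie near it, and Lox, Plod2, Loxl1 and Loxl2 lie below it.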

How the data were processed

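RNA sequencing of mouse liver gave 1 library per group. The authors deposited 1 table of RefSeq transcripts with NCBI gene identifiers. It holds, for each library, an estimated count, which was not normalized, and FPKM and TPM values, which the authors scaled by transcript length and library. Estimated counts are whole numbers shared out between overlapping transcripts. The submitters' processing notes name Trimmomatic 0.38, HISAT2 2.1.0, SAMtools 1.9, StringTie 2.1.3b and the build mm10, with no role or order. No reads were aligned again.

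Counts of transcripts with the same symbol were added up, and a gene was kept if either library had 10 counts or more. Scaling was by TMM (edgeR 4.0.16, R 4.3.3), which gave a factor of 1.03 in AAV-GFP against 0.975 in AAV-Wee1-AS. Log2 ratios used a prior count of 2, and exact (Clopper-Pearson) intervals at 95% were computed from both counts. Folds against an empty library were computed with 3 counts in it, which does not allow for counting error in the other library. GC content came from the longest GENCODE M21 transcript and was found for 14995 of 15857 genes (94.6%). That transcript can differ from the one to which the counts were assigned, as for Plod2 and Loxl4. Lowess curves (span 0.3, 5 cycles) served to take out the dependence on GC content and length. Python 3.11.15 with numpy 2.4.6, pandas 2.3.3, scipy 1.17.1, statsmodels 0.14.6 and matplotlib 3.10.9 was used. Scaling, log2 ratios and counting intervals were tested on simulated counts without a GC or length trend. The removal of the trends and the other steps were not tested in this way.

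The members and gene lists were chosen with earlier results of these data known. By rule, all 10 members, genes that overlap them and, from each other list, the 3 genes with the most counts and those with the highest and lowest ratio (at 100 counts or more) could be named. Acta2, Aoc3, Atp7a, Car9, Dok1, Eln, Lrat, Mfap2, Pdgfra, Pdgfrb, R3hcc1l, Sulf1 and Wt1 were named outside this rule, after their values were seen. The alternatives scaled by totals, by DESeq2 1.42.0 size factors or by the upper quartile. Others changed the count minimum, set a prior count of 0.5, took the deposited TPM or FPKM values with a pseudocount of 1, used curated transcripts only or the transcript with the most counts, or took out the GC and length trends.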

Additional observations from a re-analysis of the deposited data

How the results depend on the processing

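Loxl1, Loxl2, Loxl3, Lox and Plod1 had negative log2 ratios in every setting that kept them. The ranges were -1.78 to -0.71 for Loxl1 over 13 settings, -1.14 to -0.56 for Loxl2 over 12, -0.997 to -0.296 for Loxl3, -1.89 to -0.04 for Lox and -0.56 to -0.23 for Plod1. With the GC and length trends removed, P4ha1 turned to -0.35, P4ha2 to 0.0686 and Plod3 to 0.00842, and with curated transcripts only P4ha1 turned to -0.0727. Plod2 and Loxl4, whose intervals held 0, also changed sign. Plod2 was at 0.16 with the highest transcript only, and Loxl4 was negative in 4 of 12 settings, at -0.11 to 0.52. The median of P4ha1 and P4ha2, 0.07 as reported, also fell on both sides of 0, down to -0.14 with the trends removed. The median of all members stayed negative, at -0.65 to -0.25. The median of the lysyl oxidases lay above that of the lysyl hydroxylases with FPKM and with TPM at a pseudocount of 1. The number of members below 0.5-fold, 2 as reported, was 0 with FPKM and 0 with TPM at a pseudocount of 1, which shrinks low genes, 1 with curated transcripts only, where Loxl2 and Plod2 had no curated transcript past the minimum, and 1 with the highest transcript only. Of other genes of collagen maturation, 5 lay above 2-fold as reported, 1 with the GC and length trends removed and 3 under upper quartile scaling. Below 0.5-fold there were 7 as reported and 2 with the trends removed. Upper quartile scaling moved the median of all genes to -0.13. The cause of these changes was not tested where none is named. Depth limits Lox and Plod2, with at most 31 counts. No paired analysis was possible because each group has 1 library, and for the same reason no library could be left out.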
